A study of Drosophila melanogaster with 20 samples.

Results

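The genes described are pirk, Rel and 7 peptidoglycan recognition protein (PGRP) genes of Drosophila melanogaster: PGRP-LB, PGRP-SC1a, PGRP-SC2, PGRP-SB1, PGRP-LF, PGRP-SA and PGRP-SD. They were chosen by symbol, as an inhibitor of the immune deficiency (Imd) pathway, its transcription factor and members of its receptor family, and are 9 of the 17807 genes counted. Whole bodies of 2-day-old male flies were profiled by RNA sequencing in 10 inbred lines of the Drosophila Genetic Reference Panel, a collection founded from wild-caught flies. A line gave 1 library from 10 pooled flies kept at 25 °C without heat shock, and 1 library from 10 pooled flies frozen directly after 30 minutes at 35 ± 1 °C. The lines had been classed by the outcome of stress preconditioning as beneficial (RAL409, RAL387, RAL359, RAL93 and RAL69) or detrimental (RAL819, RAL737, RAL335, RAL304 and RAL195). RAL409 was set aside by the study as an outlier, so tests used 9 lines, 4 beneficial and 5 detrimental, and its values are given beside them. The replicate is the line, of which each treatment holds a single pool, so the spread in each group includes the genetic differences between lines.

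The Imd pathway is a main antibacterial signalling route of insects. Receptors of the PGRP family bind DAP-type peptidoglycan of bacterial cell walls, an adaptor complex of imd, Fadd and the caspase Dredd forms, and the NF-kB factor Rel is cleaved and enters the nucleus, where it switches on antimicrobial peptide genes. Some PGRPs are enzymes (amidases) that cut peptidoglycan into fragments that no longer signal, and others, together with pirk, hold the receptors back. In the fly gut and fat body such brakes are known to keep the response to resident bacteria low.

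Libraries held 18.4 to 33.7 M counts (1 M is 1000000). All 9 genes had counts in each of the 20 libraries, and all passed the filter on low counts. Whole flies were sequenced, so a lower level can mean fewer cells of a type or less RNA per cell, and these cannot be told apart. No analysed marker gene of midgut, fat body, hemocytes, Malpighian tubules or thoracic muscle was at 0 in all libraries. Levels of the fat body marker Fbp1 went down to 0 CPM in both treatments. Levels are normalised counts per M (CPM), after TMM scaling (a trimmed mean of log ratios between libraries). Differences are log2 ratios with standard errors, tested by edgeR's quasi-likelihood F test. P-values were adjusted for the number of genes in each fit (Benjamini-Hochberg), and values under 0.05 are said to pass, or to be called.

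Per exonic kilobase, PGRP-SC2 was the highest of the genes without heat shock, with a median level of 46.0 CPM per kb (14.7 to 152 over 9 lines). Rel followed at 30.9, PGRP-SC1a at 18.8, PGRP-SB1 at 14.8 and PGRP-LB at 14.4 CPM per kb. PGRP-SA stood at 8.34, PGRP-SD at 6.90, pirk at 6.72 and PGRP-LF at 3.21 CPM per kb. Of the 8 neighbouring pairs in this order, only PGRP-LB over PGRP-SA passed, in 9 of 9 lines (two-sided exact sign-flip permutation test, adjusted p = 0.0312 over 16 neighbouring pairs in both treatments). With heat shock the order was the same but for its end, where pirk (2.06 CPM per kb) stood below PGRP-LF (2.37 CPM per kb). PGRP-SD over PGRP-LF was then the only pair that passed (9 of 9 lines, exact sign-flip adjusted p = 0.0312). The neighbouring pairs and their direction were chosen by these same levels, so the p-values describe the order and cannot support it. An order between genes also depends on how reads were counted, which is not stated in the sources used here.

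The most altered of the 9 genes with heat shock was pirk (FBgn0034647, BDGP6 2R 21660967 to 21662995, minus strand), whose product binds PGRP receptors and imd and dampens the signal. In the beneficial lines without heat shock it stood at 16.5 CPM in RAL69, 12.5 in RAL93, 12.4 in RAL359 and 11.1 in RAL387, and with heat shock at 2.68, 4.11, 3.54 and 3.18 CPM in the same order. In the detrimental lines it stood at 21.9 CPM in RAL195, 7.88 in RAL304, 8.18 in RAL335, 17.6 in RAL737 and 6.19 in RAL819 without heat shock, and at 4.0, 3.16, 3.80, 4.65 and 4.41 CPM with it. Every line was lower after heat shock, and the lowest untreated line, RAL819, lay above the highest heat-shocked line, RAL737. The log2 change was −1.79 ± 0.22 (SE, n = 9 lines, edgeR adjusted p = 1.15e-05), from 12.7 ± 5.15 to 3.72 ± 0.640 CPM (SD). In raw counts, pirk held 153 to 692 reads per library without and 74 to 113 with heat shock. RAL409 moved the same way, from 9.53 to 5.99 CPM.

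The lines differed more in their starting level of pirk than in their level after heat shock. RAL69 fell by 2.59 on the log2 scale and RAL195 by 2.43, from the third highest and the highest starting levels, while RAL819, the lowest at the start, fell by 0.48. The starting level enters the fall itself, so a larger fall from a higher start is partly built in. Differences of pirk among lines over both treatments were not called. The coefficient of variation over lines was 40.6% without heat shock and 17.2% with it. A complete separation of the treatments, with every heat-shocked line below every untreated line, was seen in 2.09% of the 14270 genes tested.

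**Figure D1:**
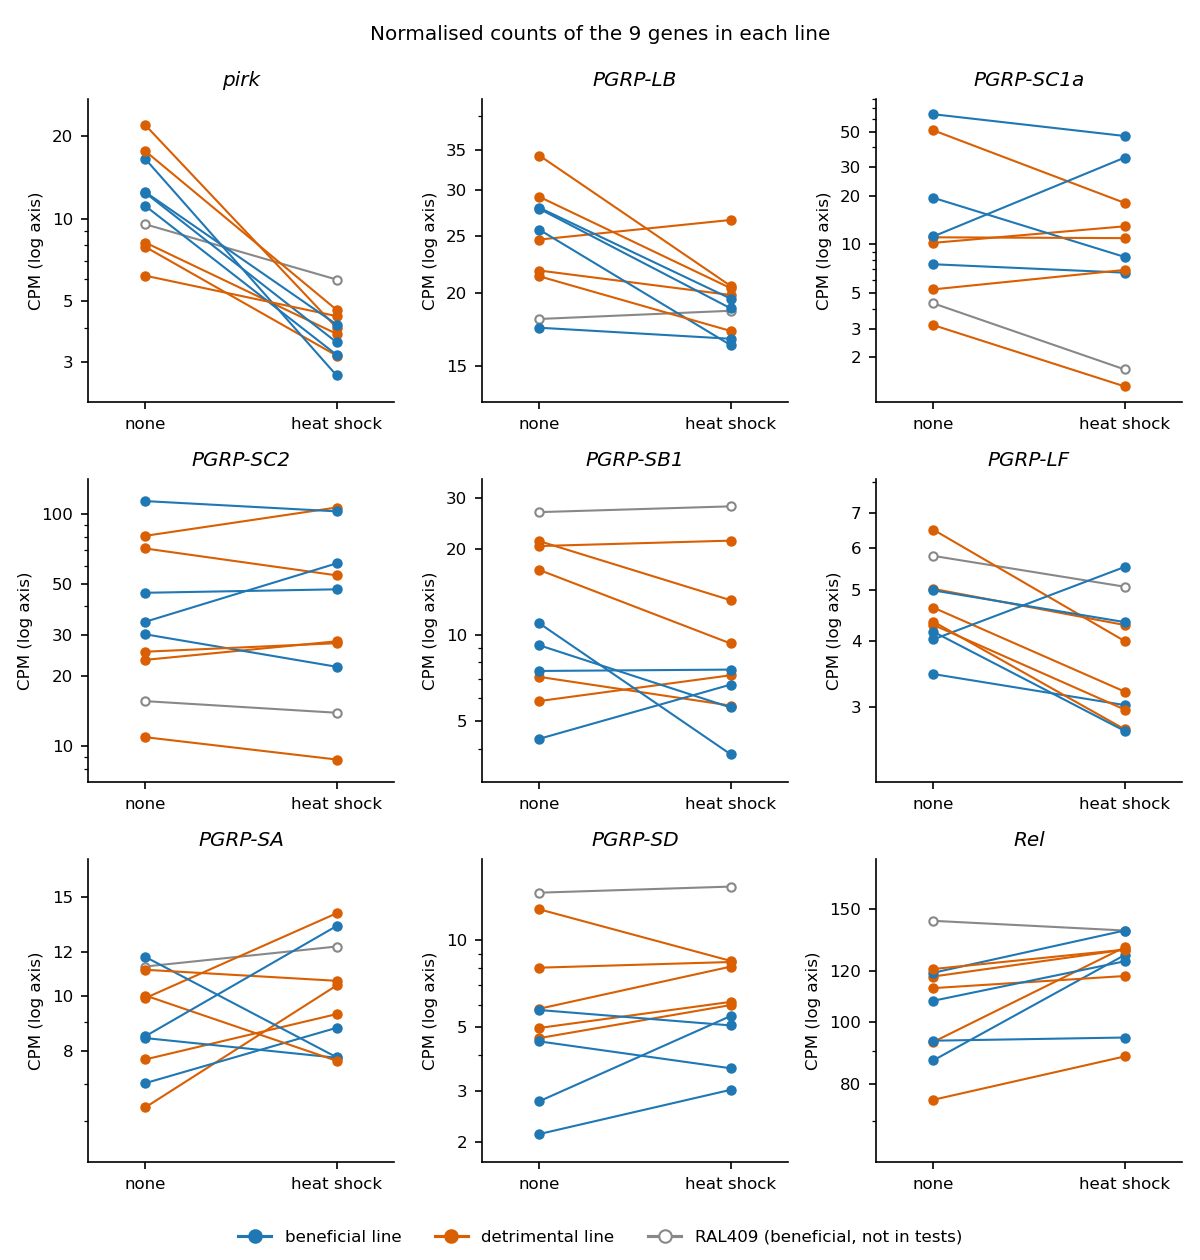
Normalised counts (CPM, log axis) of the 9 genes without and with heat shock, with points of the same line joined (4 beneficial lines in blue, 5 detrimental lines in orange, RAL409 in grey). For pirk the lines converge from 6.19 to 21.9 CPM on 2.68 to 4.65 CPM, while lines of PGRP-SC1a and PGRP-SC2 stay spread over more than a 10-fold range.

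Of the 4 amidase genes, PGRP-LB passed the heat shock test and the other 3 did not, 2 of them with estimates of like size and wider intervals. PGRP-LB (FBgn0037906, 3R 11452849 to 11460552, minus strand) encodes the main amidase that degrades DAP-type peptidoglycan and is itself known as an Imd target. Without heat shock it stood at 28.0 CPM in RAL69, 17.5 in RAL93, 25.6 in RAL359, 27.8 in RAL387, 34.3 in RAL195, 24.7 in RAL304, 21.9 in RAL335, 29.2 in RAL737 and 21.4 in RAL819. With heat shock these lines stood at 19.6, 16.7, 16.3, 18.8, 20.6, 26.6, 19.9, 20.4 and 17.2 CPM in the same order. It was lower in 8 of 9 lines, the exception being RAL304, and the treatments overlapped. The log2 change was −0.40 ± 0.12 (SE, n = 9, edgeR adjusted p = 0.0214). That call is thin, being lost without RAL195, RAL359, RAL387, RAL69 or RAL737, with adjusted p from 0.0535 to 0.0657 and log2 changes from −0.39 to −0.34. In RAL409 it was 18.1 CPM before and 18.7 CPM after heat shock.

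The gut amidases PGRP-SC1a and PGRP-SC2 are neighbours on chromosome 2R (8709733 to 8710320 and 8716950 to 8717695, plus strand, each with a single exon), with PGRP-SC1b between them. PGRP-SC1a ran from 3.16 to 64.1 CPM without heat shock, with a median of 11.1 CPM, and from 1.32 to 47.0 CPM with it, with a median of 10.9 CPM. The heat shock difference was −0.39 ± 0.60 on the log2 scale (n = 9, edgeR adjusted p = 0.789), and single lines went in opposite directions, RAL195 by −1.49 and RAL93 by 1.62. PGRP-SC1b is a near-identical copy, and how reads shared by both were counted is not stated in the sources used here. The sum of both genes is firmer only if each shared read was counted once. Summed, they stood at 37.0 ± 35.4 CPM before and 31.3 ± 27.6 CPM after heat shock (SD), a log2 difference of −0.32 (edgeR adjusted p = 0.806). PGRP-SC2 had medians of 34.4 and 47.4 CPM and a log2 difference of 0.08 ± 0.47 (edgeR adjusted p = 0.965).

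PGRP-SB1 (FBgn0043578, 3L 16727299 to 16727989, minus strand), another amidase, ran from 4.33 to 21.2 CPM without heat shock (median 9.19) and from 3.83 to 21.3 CPM with it (median 7.22). It was lower in 5 lines and higher in 4, and its log2 difference was −0.38 ± 0.30 (n = 9, edgeR adjusted p = 0.48). For these 3 amidases the 95% intervals of the log2 difference were wide, at −1.65 to 0.88 for PGRP-SC1a, −0.91 to 1.06 for PGRP-SC2 and −1.02 to 0.25 for PGRP-SB1. The fit behind them does not pair both libraries of a line, so line differences stay in the spread and can widen them. Log2 differences of single lines ran from −1.49 to 1.62 for PGRP-SC1a, −0.46 to 0.83 for PGRP-SC2 and −1.5 to 0.62 for PGRP-SB1. A fit that pairs libraries by line called none of the 3 either.

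PGRP-LF (FBgn0035977, 3L 9349609 to 9351489, plus strand) encodes a membrane protein that binds the receptor PGRP-LC and inhibits it, and lies 1272 bases from the PGRP-LC gene. It averaged 4.6 ± 0.859 CPM in untreated and 3.64 ± 0.958 CPM in heat-shocked lines (SD, n = 9), and was lower in 8 of 9 lines, all but RAL359. The log2 difference of −0.31 ± 0.15 did not pass (edgeR adjusted p = 0.195). Of its 1355 exonic bases, 602 lie opposite exons of UGP, at 462 CPM in untreated and 452 CPM in heat-shocked flies. The library kit marked strand, but the strand setting of the counting is not stated in the sources used here, so reads of UGP in the PGRP-LF count were not tested.

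Neither secreted receptor passed the test. PGRP-SA (FBgn0030310, X 11561643 to 11562779, plus strand) senses Lys-type peptidoglycan upstream of the Toll pathway, and averaged 8.98 ± 1.84 CPM before and 9.98 ± 2.37 CPM after heat shock (log2 difference 0.14 ± 0.15, edgeR adjusted p = 0.647). PGRP-SD (FBgn0035806, 3L 7651180 to 7651900, plus strand) is a circulating receptor tied to Toll and, by later work, to Imd signalling. It stood at 5.71 ± 3.18 and 6.04 ± 2.01 CPM (log2 difference 0.11 ± 0.22, edgeR adjusted p = 0.857). Among its 721 exonic bases, 35 lie opposite CG7492, at 64.6 CPM in untreated and 64.7 CPM in heat-shocked flies. In the same fit, which does not pair libraries by line, the 95% interval of the log2 difference was −0.17 to 0.46 for PGRP-SA. That of PGRP-SD was −0.36 to 0.58.

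Rel (FBgn0014018, 3R 9044183 to 9047977, minus strand), the NF-kB factor at the end of the pathway, stood at 75.7 to 121 CPM without heat shock (median 108) and at 88.4 to 139 CPM with it (median 127), and the treatments overlapped. All 9 lines were higher with heat shock, by a log2 of 0.02 in RAL69 to 0.54 in RAL387. RAL409 went the other way, from 144 CPM without to 139 CPM with heat shock. The log2 difference over the 9 lines of 0.22 ± 0.11 did not pass (edgeR adjusted p = 0.198). With line as a block, which compares both libraries of a line directly, it was 0.22 ± 0.06 and passed (adjusted p = 0.00994), while scaling by library totals gave 0.03 (adjusted p = 0.871).

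In the fit without a block, 0 of the 9 genes rose and 2 fell with heat shock, against a background of 17.9% of the 14270 genes tested that were called in either direction, 8.29% higher and 9.61% lower. Of all genes, 11.7% were lower in each of the 9 lines, as pirk was, and 10.4% higher in each, as Rel was. The median log2 difference of the 9 genes was −0.31, and that of all genes was 0.00. With line as a block, 1 gene rose (Rel) and 3 fell, pirk by 1.72 ± 0.17, PGRP-LB by 0.39 ± 0.09 and PGRP-LF by 0.33 ± 0.10 (adjusted p = 8.1e-06, 0.0036 and 0.0277), against 35.3% of all genes, 16.3% higher and 18.9% lower. Other scalings kept the direction of pirk and PGRP-LB. Scaling by library totals, which moved the median of all genes to −0.19, put PGRP-LF past the threshold at −0.50 (adjusted p = 0.0163).

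**Figure D2:**
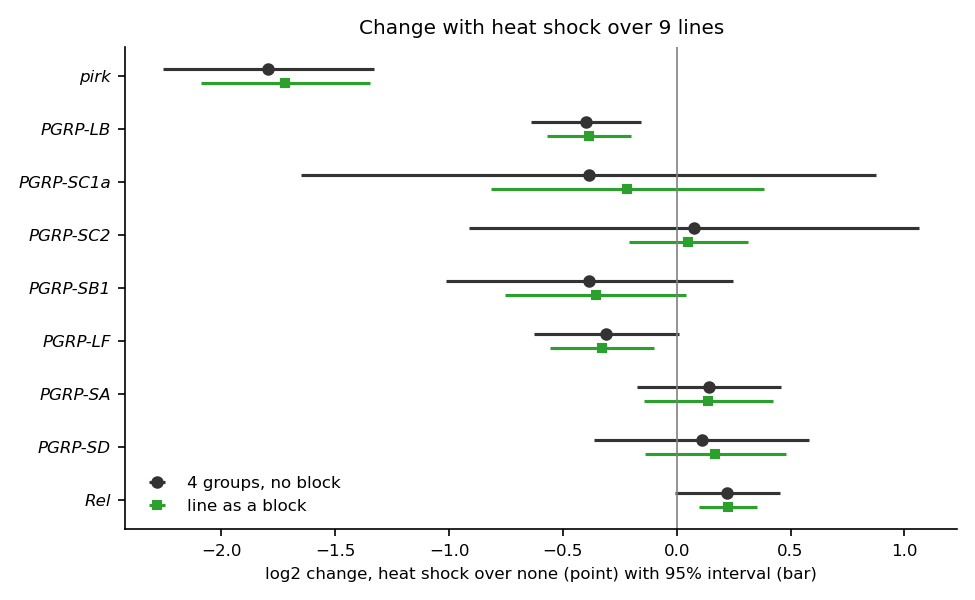
Log2 difference between heat shock and none for the 9 genes over 9 lines, with 95% intervals, without a block (black circles) and with line as a block (green squares). Intervals of pirk and PGRP-LB lie below 0 in both fits, and those of PGRP-LF and Rel exclude 0 only with the block.

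Within each class alone, in the fit without a block, pirk passed and the other 8 genes did not. It fell by 1.96 ± 0.33 on the log2 scale in the 4 beneficial lines (edgeR adjusted p = 0.000762, with 7.63% of genes called and 3.36% lower) and by 1.63 ± 0.29 in the 5 detrimental lines (edgeR adjusted p = 0.0011, with 9.96% of genes called and 4.63% lower). With line as a block PGRP-LB also fell in beneficial lines (−0.45 ± 0.13, adjusted p = 0.0251, with 10.2% of genes lower), and PGRP-LF in detrimental lines (−0.53 ± 0.14, adjusted p = 0.0164, with 12.6% lower). The responses of the classes were not shown to differ for any of the 9 genes. For pirk the beneficial response minus the detrimental was −0.33 on the log2 scale, with a 95% interval of −1.23 to 0.57, and for PGRP-LF it was 0.43, with an interval of −0.21 to 1.07. In edgeR without a block 0 of 14270 genes passed in this comparison (0.00%), with 42 (0.294%) at an unadjusted p under 0.05. DESeq2, also without a block, called 0. The edgeR fit without a block, which gave these intervals, leaves line differences in the spread and can widen a comparison made within lines. With line as a block 0 of 14270 genes passed too (0.00%).

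The other PGRP genes moved in both directions. PGRP-LC, the main membrane receptor of the pathway, rose from 45.3 ± 6.24 to 70.8 ± 11.4 CPM (log2 0.64 ± 0.11, edgeR adjusted p = 0.000337), higher in 9 of 9 lines. PGRP-LA fell by 0.36 ± 0.10 and PGRP-LE, the intracellular receptor, by 0.23 ± 0.06 (adjusted p = 0.0197 and 0.0133). In all, 1 of 5 tested other PGRP genes rose and 2 fell, also with line as a block. Over all genes 8.29% rose and 9.61% fell without the block, and 16.3% and 18.9% with it. The counts of the lists that follow stand against these shares. Values of these other genes were not followed under scaling by library totals, which put the median log2 difference of all genes at −0.19. PGRP-SB2, at 0 to 0.217 CPM, was not tested.

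Among 13 components that carry the signal, 1 rose and 3 fell without a block, and 2 rose and 5 fell with line as a block. Dredd, the caspase that cleaves Rel and imd, fell from 24.0 ± 2.97 to 13.2 ± 1.81 CPM (log2 −0.86 ± 0.09, edgeR adjusted p = 2.18e-06), in 9 of 9 lines. The kinase Tak1 fell by 0.32 ± 0.08 and key, the IKK gamma subunit, by 0.23 ± 0.07, while Tab2, the partner of Tak1, rose by 0.26 ± 0.07. The calls added by the block were imd (−0.35 ± 0.07, adjusted p = 0.00139), Fadd (−0.29 ± 0.07, adjusted p = 0.00575) and the ubiquitin ligase Diap2 (0.14 ± 0.04, adjusted p = 0.00908). Of 13 other negative regulators, dnr1, an inhibitor of Dredd, rose by 0.45 ± 0.10 and the deubiquitinase Usp2 by 0.18 ± 0.05, whereas POSH, a ubiquitin ligase that acts on Tak1, fell by 0.48 ± 0.09 and the gut repressor cad by 0.29 ± 0.06. With line as a block 4 of these 13 rose, SkpA and zfh1 being added, and 5 fell, nub, scny and casp being added (adjusted p from 0.00594 for nub to 0.037 for casp).

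None of the 13 tested antimicrobial peptide genes, the outputs of Imd and Toll, passed (median log2 difference −0.70), and over all lines only AttC passed with line as a block (−0.95, adjusted p = 0.0231). Within the classes under the block, DptA was called lower in beneficial lines (10.2% of all genes lower), and no peptide gene was called in detrimental lines. The summed level of all 14 listed peptide genes, 1 of which was not tested, ran from 44.8 to 211 CPM without and from 38.3 to 148 CPM with heat shock. In the Toll list, 3 of 20 genes rose, among them the NF-kB factor dl (0.58 ± 0.07) and the kinases Gprk2 (0.48 ± 0.08) and pll (0.42 ± 0.12), and 2 fell, Traf6 (−0.43 ± 0.11) and the protease Hayan (−0.33 ± 0.09). Under the block 6 rose, Pli, Dif and grass being added at 0.19 to 0.29, and the same 2 fell. In the JNK branch below Tak1, 4 of 6 genes rose, with the phosphatase puc the furthest (0.84 ± 0.09), and 2 fell, Gadd45 (−0.78 ± 0.23) and the kinase bsk (−0.30 ± 0.06), with the same calls under the block.

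**Figure D3:**
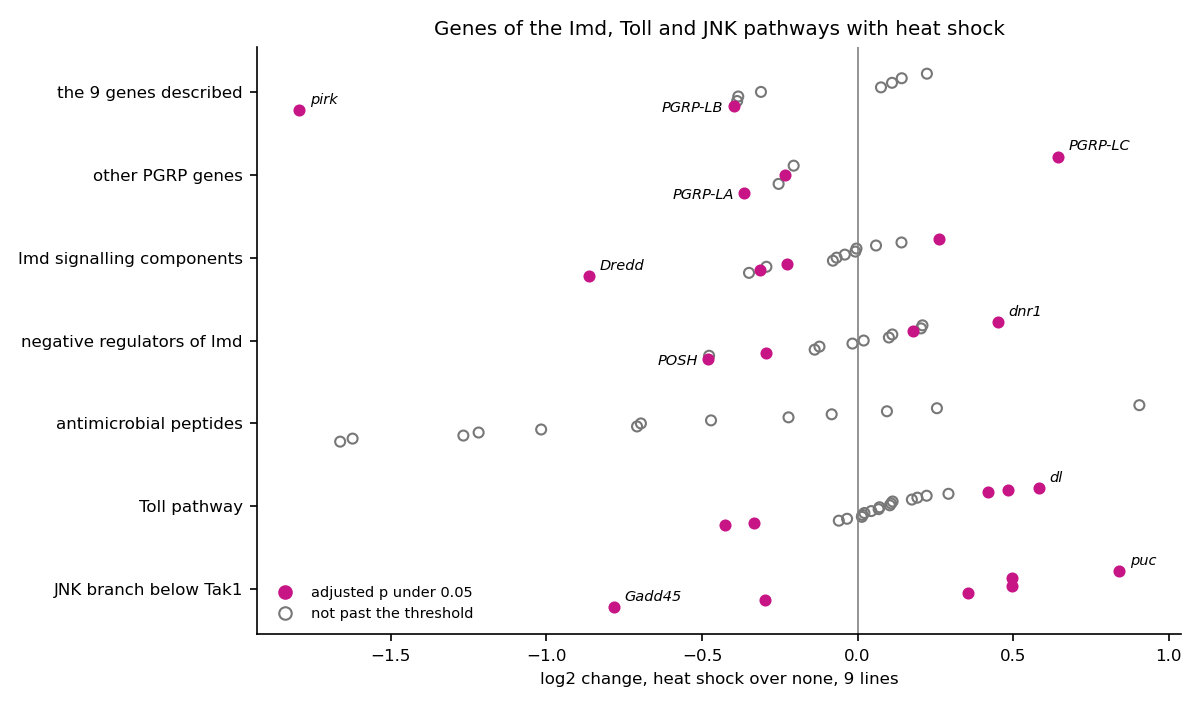
Log2 difference between heat shock and none over 9 lines for each tested gene of 7 lists, filled where the adjusted p was under 0.05. In these lists pirk (−1.79) is the lowest filled point, with Dredd at −0.86 next, and puc (0.84) and PGRP-LC (0.64) are the highest.

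Marker genes of 5 tissues or cell types were followed beside these genes. GATAe, the midgut transcription factor, fell from 13.7 ± 0.915 to 3.73 ± 0.773 CPM (log2 −1.91 ± 0.09, 9 of 9 lines, edgeR adjusted p = 7.63e-11). The summed level of the 9 midgut markers ran from 4434 to 8519 CPM without heat shock (median 6092) and from 3442 to 7880 CPM with it (median 6072), with 1 of 9 higher (Myo31DF) and 1 lower (GATAe). Of 6 fat body markers 2 fell (srp and FASN1), with summed levels of 1267 to 3491 and 1235 to 2722 CPM. Of 8 hemocyte markers 1 fell (crq, 326 to 554 CPM summed without and 267 to 711 CPM with heat shock), and of 5 Malpighian tubule markers 1 fell (Best2, 126 to 210 and 116 to 183 CPM summed). None of the 5 muscle markers passed in either fit (4305 to 6631 and 3888 to 7022 CPM summed). Under the block 3 midgut markers fell (lab and Mal-A1 beside GATAe), as did 3 fat body (apolpp added), 2 hemocyte (eater added) and 3 Malpighian tubule markers (CapaR and Irk3 added), while the hemocyte marker PPO2 rose along with Myo31DF. No marker was at 0 in all libraries, and the part of these cell types in the results was not tested.

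Over the 18 libraries, the 5 genes with the pattern most like pirk were dwg (Pearson r = 0.897), daed (0.891), trus (0.889), CG10505 (0.878) and CG5910 (0.878), out of 12696 genes with a mean of at least 1 CPM. All 5 were lower with heat shock, from −1.59 for CG10505 to −0.61 for daed on the log2 scale. These r include the treatment difference that the libraries share, and after the treatment means were removed r was 0.32 to 0.44.

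Differences among lines were called for 4 PGRP genes and Rel, none of which passed the heat shock comparison without a block. With a single pool per line and treatment, the test sets lines against the line-by-treatment spread. Differences between pools of the same line and treatment were not measured. PGRP-SC2 differed among lines by 3.46 on the log2 scale from highest to lowest line (edgeR joint F test of 9 lines, F = 36.3, adjusted p = 3.42e-06). It stood at 114 CPM in RAL387, 80.6 in RAL195, 71.1 in RAL737, 45.8 in RAL69, 34.4 in RAL93, 30.3 in RAL359, 25.5 in RAL819, 23.5 in RAL304 and 10.9 in RAL335 without heat shock. With heat shock the same lines stood at 103, 107, 54.4, 47.4, 61.3, 22, 27.8, 28.3 and 8.76 CPM. RAL387 and RAL195 were the highest and RAL335 the lowest in both treatments. RAL409, at 15.6 and 13.9 CPM, lay between RAL335 and all the others.

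PGRP-SC1a had the widest range, 4.65 on the log2 scale (adjusted p = 0.000396), and 4.10 when summed with PGRP-SC1b (adjusted p = 0.000677). Without heat shock it stood at 64.1 CPM in RAL387 and 51 in RAL195, at 19.4 in RAL69, and between 3.16 and 11.2 CPM in the other 6 lines. With heat shock RAL387 (47.0 CPM) and RAL93 (34.5 CPM) were the highest and RAL335 (1.32 CPM) again the lowest.

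PGRP-SD ranged over lines by 2.08 on the log2 scale (adjusted p = 0.00138), PGRP-SB1 by 1.91 (adjusted p = 0.002) and Rel by 0.65 (adjusted p = 0.0056). The last of these calls was lost without RAL304, the line with the lowest Rel, at a range of 0.45 (adjusted p = 0.0865). PGRP-LB, PGRP-LF, pirk and PGRP-SA, with ranges of 0.65, 0.67, 1.05 and 0.59, did not pass (adjusted p = 0.0666, 0.118, 0.157 and 0.337). PGRP-LB did pass in DESeq2 (adjusted p = 0.0277) and in edgeR with library totals (adjusted p = 0.0398). In edgeR it also passed without RAL304 or RAL359 (adjusted p = 0.0416 and 0.045), and PGRP-LF passed without RAL359 (adjusted p = 0.023). Such differences were common in these lines: 5 of the 9 genes were called against 63.6% of all genes tested, whose median range was 0.68.

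**Figure D4:**
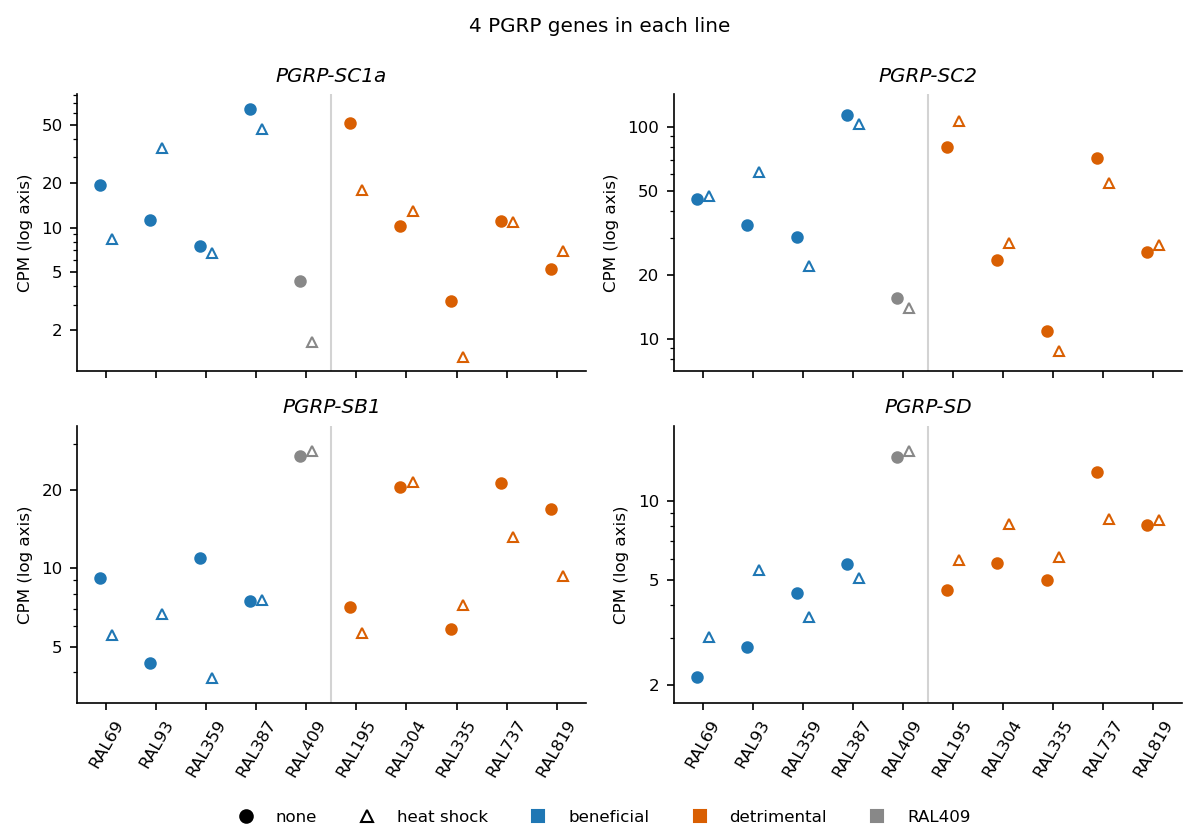
Normalised counts (CPM, log axis) of PGRP-SC1a, PGRP-SC2, PGRP-SB1 and PGRP-SD in each of the 10 lines, without (filled circles) and with heat shock (open triangles). RAL387 and RAL195 top PGRP-SC2 at 80.6 to 114 CPM, and RAL409 (grey) tops PGRP-SB1 and PGRP-SD.

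Across the 9 lines without heat shock, PGRP-SC1a and PGRP-SC2 ran together (Pearson r = 0.897, two-sided exact permutation p = 0.000882, adjusted p = 0.0397 over 45 pairs; Spearman rho = 0.9, adjusted p = 0.0913). Without RAL387 and RAL195, the 2 lines farthest from the median, r was 0.795. In the heat-shocked libraries of the same lines r was 0.890 (exact permutation, adjusted p = 0.0799). Of the other 44 pairs, which set the 9 genes against each other and against the mean of the antimicrobial peptide genes, none passed without heat shock, and in 4 of the 45 the unadjusted p was under 0.05.

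Between the classes, 0 of the 9 genes passed in either treatment, as did 0 of 13770 genes without and 0 of 13877 with heat shock in edgeR (0.00% each). At an unadjusted p under 0.05 there were 576 (4.18%) and 611 (4.40%) genes, and DESeq2 called 22 (0.144%) and 12 (0.0722%), none of the 9 among them. The lowest p of the 9 belonged to PGRP-SD. In heat-shocked flies it stood at 3.04 CPM in RAL69, 5.48 in RAL93, 3.61 in RAL359 and 5.08 in RAL387, and at 5.97 in RAL195, 8.12 in RAL304, 6.13 in RAL335, 8.50 in RAL737 and 8.42 in RAL819. All 4 beneficial lines were below all 5 detrimental lines, a separation seen in 0.670% of the genes tested in this direction and in 1.41% in either. The log2 ratio of beneficial to detrimental was −0.79 ± 0.21 (edgeR unadjusted p = 0.00385, adjusted p = 0.999). RAL409, a beneficial line, was the highest of all at 15.4 CPM, and with it included the log2 ratio was −0.19.

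Without heat shock PGRP-SD stood at 2.14, 2.78, 4.47 and 5.74 CPM in RAL69, RAL93, RAL359 and RAL387, and at 4.59, 5.80, 4.98, 12.8 and 8.05 CPM in RAL195, RAL304, RAL335, RAL737 and RAL819. The classes overlapped, and the log2 ratio was −0.94 ± 0.38 (edgeR adjusted p = 0.999), or −0.29 with RAL409. PGRP-SB1 gave log2 ratios of −0.83 ± 0.42 without and −0.94 ± 0.37 with heat shock (adjusted p = 0.999 in both), or −0.28 and −0.13 with RAL409. In the authors' deposited table, which also leaves out RAL409, PGRP-SD had log2 ratios of −0.97 without and −0.80 with heat shock (adjusted p = 0.691 and 0.166, DESeq2). PGRP-SB1 stood there at −0.83 and −0.94 (adjusted p = 0.957 and 0.697). For pirk the log2 ratio was 0.08 without heat shock (95% interval −0.73 to 0.90) and −0.25 with it (−0.67 to 0.17), and for Rel it was −0.03 (−0.36 to 0.30) and 0.02 (−0.30 to 0.34).

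**Figure D5:**
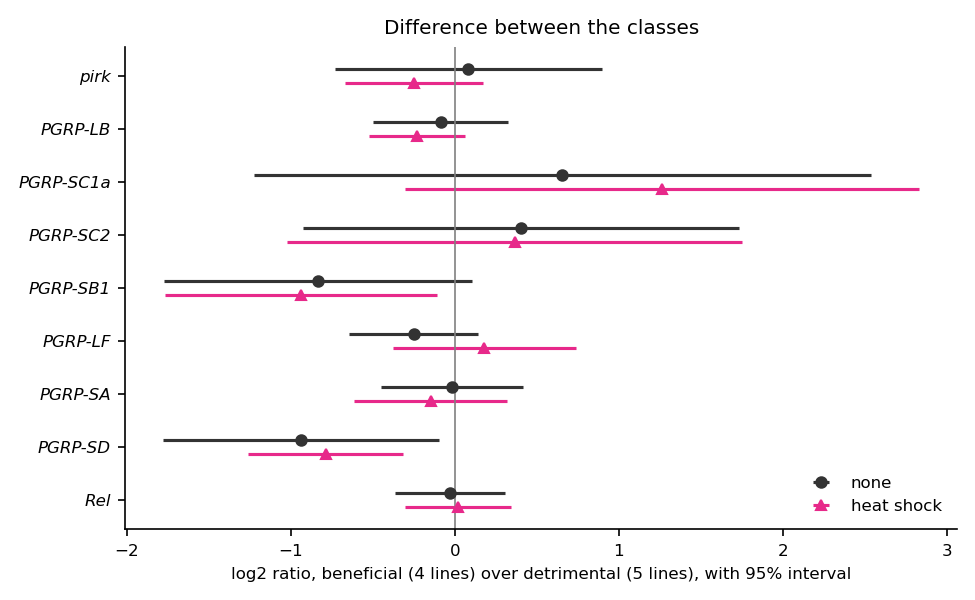
Log2 ratio of the 4 beneficial to the 5 detrimental lines for each gene, with 95% intervals, without (black circles) and with heat shock (pink triangles). Intervals of PGRP-SD lie below 0 in both treatments and that of PGRP-SB1 with heat shock, though none of the 9 genes passed after adjustment over all genes.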

How the data were processed

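For 20 libraries of whole male flies, the authors deposited a table of raw whole-number counts of 17807 FlyBase genes. The library kit was a stranded mRNA kit, per the labels' protocols. The submitters' processing notes name Bowtie2 2.2.9, DESeq2 1.28.1, SAMtools 1.12 and the build BDGP6. The counting tool, its annotation and its strand setting are not given in the sources used here. The authors also deposited log2 ratios of beneficial to detrimental lines without RAL409, with their p-values and adjusted p-values, per the file headers.

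Symbols and positions came from the BDGP6 annotation of Ensembl release 115, in which 17710 identifiers matched. Tests used R 4.3.3 with edgeR 4.0.16 (filterByExpr, TMM, quasi-likelihood F test) in a fit of 4 groups (class by treatment) over 18 libraries, 14270 genes. The classes were compared within each treatment, and lines in a model of treatment plus line. Line is shared by both treatments, which pairs the libraries: after group means were removed, libraries of the same line correlated at 0.547 to 0.800, and different lines at most at 0.118. A fit with line as a block stands beside the results it changed. Alternatives were DESeq2 1.42.0, other scalings, no count filter, RAL409 included, PGRP-SC1a and PGRP-SC1b summed, and each line left out. Correlations used log2 CPM with a prior count of 2.

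The 9 genes and the lists were chosen with earlier results of these data known. The order of levels per kilobase and its test were added after the values had been seen. In each list, up to 4 called genes with the smallest p were named, GATAe, cad and Tak1 always, and the 5 genes most like pirk by Pearson r. Marker genes esg and FBP2 were not analysed here. Total counts of 18.4 to 33.7 M set the counting error only. The tests of heat shock over all lines, of the classes without heat shock and of lines were tried on simulated counts before use. Counts for the heat shock and class tests were drawn without line differences, so the pairing by line was not tried.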

Additional observations from a re-analysis of the deposited data

Results flagged for a closer look

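PGRP-SC1a stood at 51 CPM in RAL195 without heat shock, far from the other 4 detrimental lines at 3.16 to 11.1 CPM. Its gap to the nearest line was 0.835 of the group's range in CPM. On the log2 scale used in the correlations it stood at 5.67, against 1.69 to 3.48 in those lines, and that gap was not examined. Of 36 groups of a gene, class and treatment examined, this was the only 1. Among normally distributed values the rule used flags about 1 in 20 groups, and 1 of 36 is not above that rate. Whether these values are so distributed, and chance as a source of the gap, were not tested. With heat shock RAL195 was again the highest of the detrimental lines, at 18.1 CPM. PGRP-SC1b, its near-identical copy, stood at 34.2 CPM in the same library.

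RAL409, which entered none of the main tests, had the highest PGRP-SB1 of all lines, at 26.8 CPM without heat shock (4.33 to 21.2 in the other 9) and 28.1 CPM with it (3.83 to 21.3). Its PGRP-SD was also the highest, at 14.6 CPM without (2.14 to 12.8 in the others) and 15.4 CPM with heat shock (3.04 to 8.50). Beside them, the summed antimicrobial peptide genes stood at 205 and 270 CPM in RAL409, against 44.8 to 211 and 38.3 to 148 CPM in the others, and their part in these levels was not tested. Both libraries of RAL409 were set aside by the study.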

How the results depend on the processing

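The fall of pirk over all lines kept its direction and its call under all 16 alternatives (log2 −2.0 to −1.64, highest adjusted p = 0.000163). With line as a replicate block the number of the 9 genes called with heat shock went from 2 to 4 over all lines, from 1 to 2 in beneficial lines and from 1 to 2 in detrimental lines, and calls over all genes from 2555 to 5032, 1089 to 2767 and 1422 to 3265. The block changed no other call of the 9 genes. Scaling by library totals gave 3, 2 and 3 of the 9 genes and 4932, 2178 and 3443 of all genes, with 14.1% of calls over all lines higher against 46.3% in TMM. When lines were left out in turn, 1 to 2 of the 9 genes were called over all lines, 1 in each class and 5 to 7 among lines. Over all genes 628 to 1117 were then called in beneficial lines, with the 628 and 682 without RAL387 and RAL359, and 936 to 1419 in detrimental lines, with the 936 without RAL335. DESeq2 called 22 and 12 genes between the classes without and with heat shock, and edgeR 0. No pair of genes passed the correlation test with the heat-shocked libraries (0 of 45) or without the 2 lines farthest from the median (0 of 45). Of 846 values of the 9 genes under alternatives, 67 had another sign than the value reported, all for differences that were not called. Each line gave 1 pool per treatment, so spread within a line was not measured. The lowest count of the 9 genes in a tested library was 35, for PGRP-SC1a in RAL335 with heat shock. The cause of the shifts in the numbers of calls was not tested.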
